A study of Homo sapiens with 12 samples.

Results

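The NRF2 antioxidant program is described here through 39 genes that were chosen by name, out of the 60623 genes of the deposited count table. The genes cover the regulators of the program, its detoxifying and antioxidant enzymes, and the exporters that remove conjugated products. NRF2, the product of NFE2L2, is a transcription factor that binds antioxidant response elements together with a small MAF protein. In unstressed cells KEAP1 holds NRF2 on a ubiquitin ligase built on CUL3, and oxidants or electrophiles that modify KEAP1 let NRF2 accumulate. A549 is a human lung adenocarcinoma line with mutant KEAP1, in which the program is known to be on without added stress. AHR, the aryl hydrocarbon receptor, is a ligand-activated transcription factor of foreign-compound metabolism, and both factors are known to act on NQO1 and other detoxifying genes.

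RNA was compared between 4 stable A549 lines. The V line was infected with lentivirus carrying the empty vector pLV-EF1a-IRES-Hygro, the WT line with HA-tagged wild-type AHR, the SA line with HA-AHR carrying S489A, and the SD line with HA-AHR carrying S489D. The serine changed in both is the site that the study examined for phosphorylation by PLK1. Alanine cannot be phosphorylated, and aspartate is used to mimic a phosphorylated residue. All 4 lines were infected, were selected with 200 µg/ml hygromycin for 72 h and still carry their own AHR gene. Each line gave 3 libraries, 12 in all, which the labels call biological replicates. Each construct was carried by 1 line, so what the construct does cannot be told apart from what else sets 1 line off from another, and p-values measure only the spread between these libraries.

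The deposited expected counts summed to between 7844045 and 11765576 per library, at which depth a count of 0 allows up to 3 counts, or between 0.255 and 0.382 counts per 1000000 (CPM), for counting error only. Normalized values are CPM scaled with TMM factors, which lay between 0.993 and 1.01. AHR itself was at 69.1 ± 4.51 CPM in V (mean ± SD, n = 3) against 266 ± 28.3 in WT, 223 ± 5.87 in SA and 210.0 ± 9.15 in SD, and it was lower in SD than in WT (log2 fold change -0.35, edgeR adjusted p = 0.00774). Reads of the construct and of the cells' own gene were not separated in this value. Of the epithelial markers, KRT8, KRT18 and CDH1 were expressed in every library and lower in WT, SA and SD than in V (adjusted p under 0.05), while KRT19 and EPCAM stayed at or below 1.75 CPM. The leukocyte, endothelial, fibroblast and erythroid markers were near 0 apart from CD68, at 21.7 to 36.7 CPM, and COL1A1, at 5.34 to 13.1 CPM. Of these, COL1A1 was lower than in V in WT and SA and CD68 was higher in SA (adjusted p under 0.05). The part of these marker differences, and of those in keratins and CDH1, in the results for the members was not tested.

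Each member was detected in all 12 libraries, and all 39 passed the filter on low counts in each of the 6 comparisons of lines. Together they took between 2.21% and 2.43% of all counts of a library, and the share was 2.28% ± 0.0329 in V against 2.35% ± 0.0634 in WT, 2.38% ± 0.0775 in SA and 2.34% ± 0.112 in SD (± SD, n = 3). Mitochondrial genes took between 7.33% and 10.1% of the counts of a library, and SD replicate 1 (10.1%) and V replicate 1 (9.7%), which had the highest mitochondrial shares, had the lowest member shares (2.21% and 2.25%). Per kilobase of each gene's canonical Ensembl transcript, the ferritin chains FTL and FTH1 were the most abundant members, at 12995 and 5961 transcripts per 1000000 (TPM), followed by AKR1B1 at 2321, AKR1B10 at 1547 and TKT at 1447. FTL held rank 7 and FTH1 rank 12 among the 60295 genes for which such a length was found. The regulators NFE2L2 and KEAP1 were at 50 and 54.8 TPM. GPX2, FECH and CBR3 were the least abundant members, at 17.7, 14 and 9.07 TPM. Of the 39 members, 29 had a mean of at least 100 CPM. The median coefficient of variation between the 3 libraries of a line was 4.19%, and it passed 20% in any line only for CBR3 and GPX2.

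**Figure D1:**
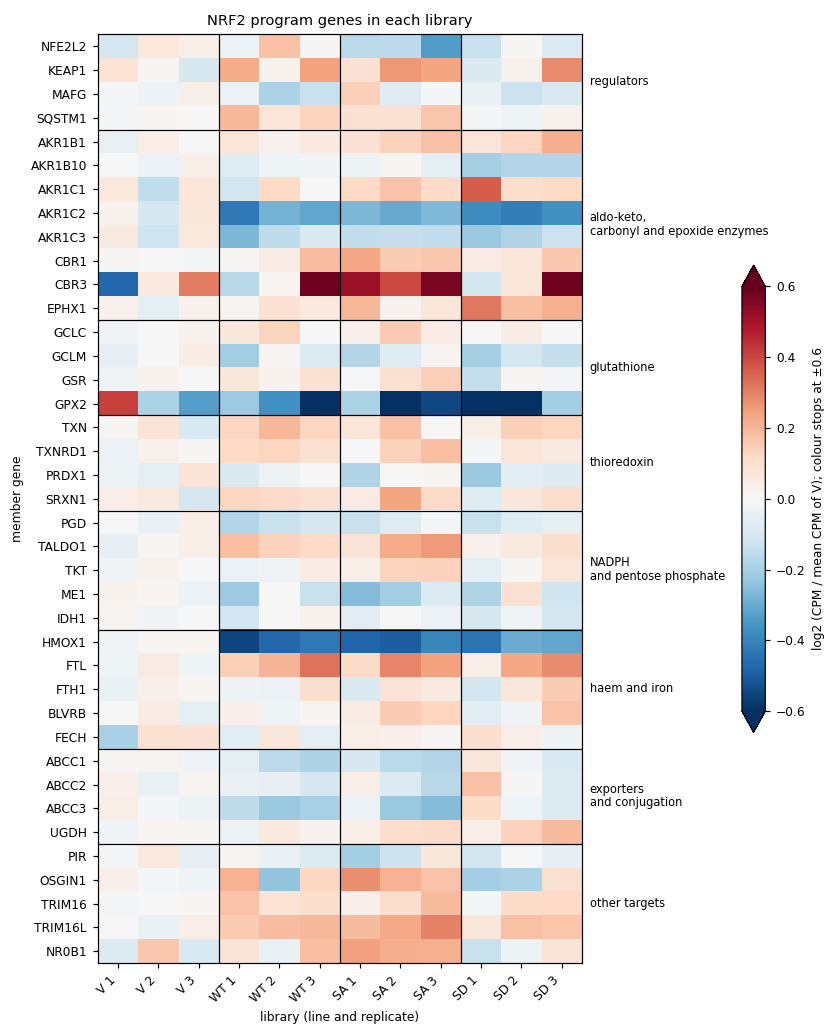
Each row is a member gene, grouped by role, and each column a library. The colour is log2 of the CPM relative to the mean CPM of the 3 V libraries, red for higher and blue for lower, and it stops at ±0.6. HMOX1 and AKR1C2 are blue in all 9 libraries of WT, SA and SD. FTL is above the V mean in all 9, but in SD replicate 1 so slightly that the colour is close to white. GPX2 and CBR3 vary widely within lines.

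The 39 members were compared between each AHR-expressing line and V, which asks whether the program moves when AHR is raised. The tests were edgeR's quasi-likelihood tests, two-sided and fitted on all genes, and a gene counted as changed at an adjusted p under 0.05 (Benjamini-Hochberg over all genes tested in the comparison). In WT against V, 7 of the 39 members (17.9%) changed, where 5.24% of all 14772 genes tested did. FTL, TRIM16L and SQSTM1 were higher, where 2.31% of all genes were, and HMOX1, AKR1C2, ABCC3 and PGD lower, where 2.93% were. In SA against V, 6 members (15.4%) changed, where 7.17% of 14913 genes did. FTL, TRIM16L and TALDO1 were higher (3.88% of all genes) and HMOX1, AKR1C2 and ABCC3 lower (3.29%). In SD against V, 4 members (10.3%) changed, where 5.41% of 14890 genes did. EPHX1 was higher (2.92% of all genes) and HMOX1, AKR1C2 and AKR1B10 lower (2.49%). Most members are abundant. Among genes of at least 100 CPM, 13.7% changed in WT against V, 17.5% in SA against V and 9.85% in SD against V, and the 7, 6 and 4 members that changed are all among the 29 of that level. The counts depend on single libraries. Without V replicate 1, 4 members changed in WT against V (1 higher and 3 lower), where 434 of all 15045 genes tested did. Without SA replicate 1, 14 members changed in SA against V (10 higher and 4 lower), where 1195 of 15167 genes did. Without SD replicate 1, 8 members changed in SD against V (5 higher and 3 lower), where 856 of 15177 genes did.

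The changes went both ways. The median log2 fold change of the members was 0.01 in WT against V, 0.08 in SA against V and 0.01 in SD against V, beside a median of 0.00 over all genes tested in each. The 3 libraries of the AHR line lay wholly above or below the 3 of V for 15 members in WT, 22 in SA and 15 in SD, where 21.9%, 23.8% and 21.4% of all genes tested did so. In all, 10 members changed in at least 1 line and 29 in none. The shares of all genes that changed in at least 1 line, or in several, were not worked out, so no excess is read from these pooled counts. HMOX1 and AKR1C2 changed against V in each of the 3 lines, and FTL, ABCC3 and TRIM16L in WT and SA. The 3 comparisons share the same V libraries, so a V library that departs from its line would enter all of them. In bulk RNA, less RNA per cell cannot be told apart from fewer cells that express the gene.

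**Figure D2:**
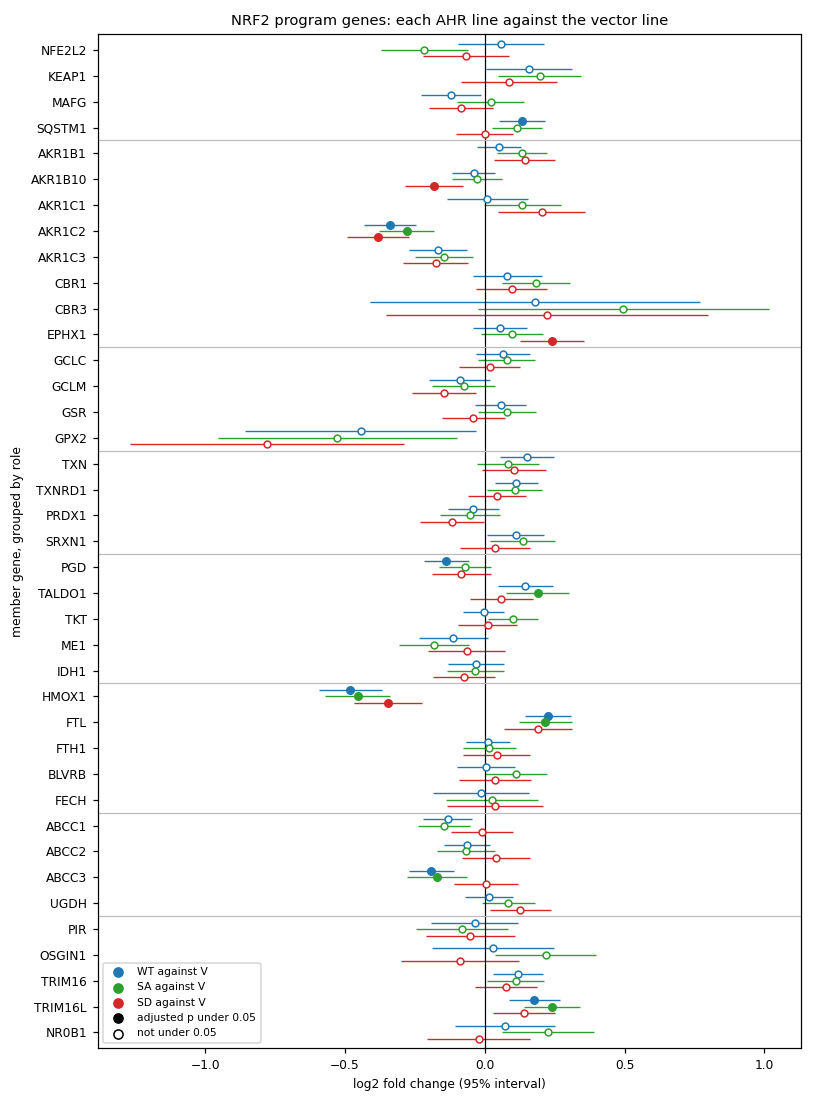
Points are log2 fold changes of each member in WT (blue), SA (green) and SD (red) against V, with 95% intervals from edgeR's quasi-likelihood fit; filled points have an adjusted p under 0.05. Most points are open and lie close to 0, and the filled points are those of SQSTM1, AKR1B10, AKR1C2, EPHX1, PGD, TALDO1, HMOX1, FTL, ABCC3 and TRIM16L.

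Among the regulators, neither NFE2L2 nor KEAP1 changed in any comparison. NFE2L2 (ENSG00000116044, chr2:177227595-177392697 of GRCh38, minus strand) was at 54.8, 61.6 and 60.3 CPM in the V libraries, 57.4, 66.6 and 59.1 in WT, 52.7, 52.9 and 46.6 in SA and 53.7, 59.2 and 55.7 in SD. The SA libraries were the lowest and lay below all V libraries, and the WT and SD libraries overlapped those of V. The log2 fold change against V was 0.06 ± 0.075 in WT (± SE, adjusted p = 0.775), -0.22 ± 0.076 in SA (adjusted p = 0.0879) and -0.07 ± 0.075 in SD (adjusted p = 0.722). On the opposite strand, exons of HNRNPA3 cover 23.4% of the exonic bases of NFE2L2, and whether the counting used strand is not given in the sources used here. KEAP1 (ENSG00000079999, chr19:10486125-10503558, minus strand) was at 63.8, 60.6 and 56.4 CPM in V, 70.4, 61.2 and 71.1 in WT, 63.9, 72.2 and 70.9 in SA and 56.7, 61.3 and 73.3 in SD. All SA libraries lay above those of V, the lowest by a narrow margin, and SD replicate 3 was the highest of the 12. The log2 fold change against V was 0.16 ± 0.075 in WT (adjusted p = 0.261), 0.20 ± 0.072 in SA (adjusted p = 0.103) and 0.09 ± 0.084 in SD (adjusted p = 0.667). Without SA replicate 1, KEAP1 passed the threshold in SA against V (adjusted p = 0.0362).

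SQSTM1 encodes p62, an autophagy receptor that binds KEAP1 and is itself an NRF2 target. It was at 842, 858 and 849 CPM in V, 973, 895 and 934 in WT, 906, 906 and 953 in SA and 846, 835 and 864 in SD. The WT and SA libraries lay above all V libraries and the SD libraries overlapped them. Exons of MRNIP, at 310 CPM on average, cover 21% of the exonic bases of SQSTM1 on the opposite strand. SQSTM1 rose by 9.76% in WT (log2 fold change 0.13 ± 0.040, adjusted p = 0.0459), and this call was lost when any of V replicates 1, 2 and 3 or WT replicates 1 and 3 was left out (adjusted p between 0.0655 and 0.205). The values in SA and SD did not pass the test (adjusted p = 0.118 and 0.997), but SQSTM1 was called in SA without SA replicate 1. MAFG, a small MAF partner of NRF2, was at 136 to 171 CPM over the 12 libraries and did not pass the test in any line (log2 fold changes -0.12, 0.02 and -0.08 in WT, SA and SD).

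The haem and iron genes changed in both directions. HMOX1 encodes haem oxygenase 1, which opens the haem ring and releases iron and biliverdin. It lies at chr22:35380361-35394207 on the plus strand (ENSG00000100292). HMOX1 was at 134, 137 and 137 CPM in V, 93, 98.3 and 101 in WT, 97.9, 96.7 and 104 in SA and 100.5, 111 and 109.7 in SD. The 9 libraries of the AHR lines all lay below the lowest V library, and the V libraries differed little from each other. HMOX1 fell by 28.4% in WT (log2 fold change -0.48 ± 0.055, adjusted p = 4.98e-07), by 27% in SA (log2 fold change -0.45 ± 0.056, adjusted p = 3.28e-06) and by 21.3% in SD (log2 fold change -0.35 ± 0.059, adjusted p = 0.000384). Leaving out any 1 library kept all 3 calls.

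FTL, the ferritin light chain, was higher in WT and SA. It lies at chr19:48965309-48966879 on the plus strand (ENSG00000087086) and was the most abundant member. FTL was at 4614, 4853 and 4611 CPM in V, 5176, 5407 and 5887 in WT, 5085, 5741 and 5541 in SA and 4816, 5510.1 and 5720.3 in SD. All WT and SA libraries were above all V libraries, while SD replicate 1 lay among the V libraries. FTL rose by 16.9% in WT (log2 fold change 0.23 ± 0.040, adjusted p = 0.000413) and by 16.2% in SA (log2 fold change 0.22 ± 0.046, adjusted p = 0.00312). In SD the log2 fold change of 0.19 ± 0.058 did not pass the test (adjusted p = 0.0546), but FTL was called in SD by DESeq2, with a filter of at least 1 count, and without SD replicate 1. The mitochondrial share of the counts, given above, was lower in all WT libraries than in all V libraries and highest in SD replicate 1, the SD library with the lowest FTL, and its part in the FTL values was not tested. FTH1, the ferritin heavy chain that carries the ferroxidase site, was at 3284 ± 80 CPM in V against 3312 ± 178 in WT, 3323 ± 198 in SA and 3378 ± 307 in SD, with log2 fold changes of 0.01, 0.02 and 0.04 (95% intervals -0.07 to 0.09, -0.08 to 0.11 and -0.08 to 0.16). Of the 50-base stretches of the FTL transcript 18.5% also occur in other genes, all of them pseudogenes, and of those of FTH1 41.3%. Exons of BEST1 on the opposite strand cover 63.2% of the exonic bases of FTH1. BLVRB, a biliverdin reductase, and FECH, which inserts iron into protoporphyrin, did not pass the test in any comparison, with log2 fold changes against V between -0.01 and 0.11.

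Promoter windows were taken from RefSeq, from 250 bases before to 50 bases after the start of the gene, and the 250 bases before the start are printed. That of FTL is shown because FTL is a member that rose and its window holds the core of the AHR response element, GCGTG. The capitals mark matches of that core on either strand, whose left ends lie 195 and 177 bases before the start (GRCh38.p14, chr19:48965059-48965308, plus strand, 5′ to 3′).
FTL: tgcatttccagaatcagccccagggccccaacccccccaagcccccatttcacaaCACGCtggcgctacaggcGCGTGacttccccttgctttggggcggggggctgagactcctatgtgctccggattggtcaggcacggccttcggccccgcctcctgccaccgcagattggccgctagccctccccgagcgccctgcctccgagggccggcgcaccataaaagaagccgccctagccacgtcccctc

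The aldo-keto, carbonyl and epoxide enzymes reduce reactive aldehydes and ketones or hydrolyse epoxides, and 3 of the 8 changed in at least 1 line. AKR1C2, a 3-alpha-hydroxysteroid dehydrogenase of the aldo-keto reductases, lies at chr10:4987400-5018031 on the minus strand (ENSG00000151632). It was at 766, 707 and 791 CPM in V, 560.5, 619.7 and 608 in WT, 626, 611 and 628 in SA and 581, 567 and 587 in SD, and the 9 libraries of the AHR lines all lay below the lowest of V. AKR1C2 fell by 21% in WT (log2 fold change -0.34 ± 0.046, adjusted p = 8.21e-06), by 17.6% in SA (log2 fold change -0.28 ± 0.047, adjusted p = 0.00025) and by 23.2% in SD (log2 fold change -0.38 ± 0.054, adjusted p = 2.49e-05). Its neighbour AKR1C1, at 81.3 ± 6.9 CPM in V against 81.6 ± 6.57 in WT, 89.3 ± 1.94 in SA and 93.5 ± 9.49 in SD, did not pass the test (log2 fold changes 0.01, 0.13 and 0.20). AKR1C3 was lower in each AHR line by point estimate, at -0.17, -0.15 and -0.17 on the log2 scale, and missed the threshold in all 3 (adjusted p = 0.0525, 0.0812 and 0.0726). In WT, AKR1C3 was called with both other filters on low counts and without V replicate 2 or WT replicate 3. It was called in SA with the replicate block, in SD with a filter of at least 1 count, and in both without V replicate 2.

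The division of reads between AKR1C1 and AKR1C2 is uncertain, because 45.7% of the 50-base stretches of the AKR1C2 transcript also occur in AKR1C1, and the expected counts of AKR1C1, AKR1C2 and AKR1C3 were not whole numbers in any of the 12 libraries. With the counts of AKR1C1 and AKR1C2 summed, the sum was lower than in V in WT (log2 fold change -0.30, adjusted p = 5.21e-05), in SA (-0.23, adjusted p = 0.00186) and in SD (-0.31, adjusted p = 0.000405). The bases before their starts are shown because the genes are close copies whose values moved unequally. Of the 300 bases of each window, 288 align as identical, 4 differ and 4 inner bases occur only in AKR1C1. Capitals mark those 4 inner bases, and the 4 that differ lie after the stretch shown. Neither window holds GCGTG or the core of the antioxidant response element, TGACNNNGC (GRCh38.p14, AKR1C1 at chr10:4963165-4963414 on the plus strand and AKR1C2 at chr10:5003858-5004107 on the minus strand, both 5′ to 3′ along the gene).
AKR1C1: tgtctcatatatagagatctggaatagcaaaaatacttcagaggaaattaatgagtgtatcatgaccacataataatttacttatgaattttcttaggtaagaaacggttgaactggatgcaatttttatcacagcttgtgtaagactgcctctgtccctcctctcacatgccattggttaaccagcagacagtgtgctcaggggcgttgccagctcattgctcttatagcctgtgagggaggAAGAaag
AKR1C2: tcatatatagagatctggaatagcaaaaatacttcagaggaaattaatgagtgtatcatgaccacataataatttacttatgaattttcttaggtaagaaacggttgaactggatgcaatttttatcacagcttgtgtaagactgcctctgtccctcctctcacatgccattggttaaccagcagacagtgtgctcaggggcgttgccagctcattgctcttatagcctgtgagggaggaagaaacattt

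AKR1B10, an aldo-keto reductase of retinal and other aldehydes, was at 1208, 1183 and 1240.1 CPM in V, 1151, 1189 and 1196 in WT, 1185, 1215 and 1164 in SA and 1056, 1070.5 and 1073 in SD. The SD libraries were the lowest of the 12, and those of WT and SA overlapped V. AKR1B10 fell by 11.8% in SD (log2 fold change -0.18 ± 0.050, adjusted p = 0.0308), a call that was lost without V replicate 1, 2 or 3 or SD replicate 2 (adjusted p between 0.0811 and 0.166). In WT and SA its log2 fold changes against V were -0.04 and -0.03, and the difference of SD from WT, at -0.14 ± 0.050, did not pass the test (adjusted p = 0.247). EPHX1, the microsomal epoxide hydrolase, was at 216, 205 and 216 CPM in V, 215, 226 and 221 in WT, 244, 215 and 223 in SA and 264, 240.4 and 246 in SD. All SD libraries lay above all V and WT libraries, and SA replicate 1 reached into the SD range. EPHX1 rose by 18% in SD (log2 fold change 0.24 ± 0.056, adjusted p = 0.00861), and without V replicate 2 the adjusted p was 0.0745. Its values against V in WT and SA, 0.06 and 0.10 on the log2 scale, did not pass the test, and SD against WT, at 0.18 ± 0.055, did not either (adjusted p = 0.161). Aldose reductase AKR1B1 and the carbonyl reductases CBR1 and CBR3 did not pass the test in any line, with adjusted p-values in SA against V of 0.0674, 0.0579 and 0.281. AKR1B1 was called higher in SA by DESeq2, with a filter of at least 1 count, with the replicate block and without SA replicate 1, and in SD without SD replicate 1.

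RefSeq lists 3 starts for EPHX1, and the window with the most matches is shown with that of PGD, the other changed member whose window holds TGACNNNGC, to set the 2 motifs side by side. Capitals mark both motifs on either strand. In EPHX1 the left end of TGACNNNGC lies 78 bases before the start and those of GCGTG 143 and 103 bases before it (chr1:225825104-225825353, plus strand). In PGD the left end of TGACNNNGC lies 201 bases before the start and those of GCGTG 232 and 44 bases before it (chr1:10398814-10399063, plus strand).
EPHX1: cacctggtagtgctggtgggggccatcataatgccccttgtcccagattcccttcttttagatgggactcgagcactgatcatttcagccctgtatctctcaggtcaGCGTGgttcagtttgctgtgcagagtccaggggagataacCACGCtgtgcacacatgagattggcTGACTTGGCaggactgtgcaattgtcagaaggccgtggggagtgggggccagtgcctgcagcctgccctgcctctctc
PGD: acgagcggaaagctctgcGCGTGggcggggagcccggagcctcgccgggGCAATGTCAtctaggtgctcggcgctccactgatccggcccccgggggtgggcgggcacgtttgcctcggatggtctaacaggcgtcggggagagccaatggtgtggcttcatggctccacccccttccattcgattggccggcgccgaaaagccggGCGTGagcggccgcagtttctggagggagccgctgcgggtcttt

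Over all members, RefSeq windows were found for 30 of 39. AKR1B10, CBR3, GSR, PRDX1, HMOX1, FTH1, ABCC1, ABCC3 and TRIM16L are not among them. TGACNNNGC occurred in the windows of 11 of the 30 members (36.7%), which were CBR1, EPHX1, FECH, GCLM, GPX2, IDH1, KEAP1, ME1, PGD, PIR and TXNRD1, and in those of 16.1% of all 27305 genes with a window. GCGTG occurred in 19 of the 30 (63.3%) and in 40.6% of all genes with a window. The matches of the 2 motifs did not overlap in any member's window. Of the 10 members that changed, 6 have a window, of which 2 (EPHX1 and PGD) hold TGACNNNGC and 3 (EPHX1, FTL and PGD) hold GCGTG. Of the 29 members that did not change, 24 have a window, of which 9 hold TGACNNNGC and 16 hold GCGTG. A match describes the letters of the window and not a bound site.

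The genes of glutathione synthesis and use did not pass the test in any comparison. They are GCLC and GCLM, the catalytic and modifier subunits of glutamate-cysteine ligase, the reductase GSR and the peroxidase GPX2. By edgeR at an unadjusted p under 0.05, 1 of the 4 differed between WT and V, 1 between SA and V and 2 between SD and V, where 17.4%, 20% and 17.4% of all genes tested did, and DESeq2 called none of the 4 in any of these comparisons. GCLC was at 246 ± 3.82 CPM in V against 257 ± 12.1 in WT, 259.5 ± 12.1 in SA and 248 ± 4.7 in SD, and the intervals of its log2 fold changes against V reached from -0.03 to 0.16 in WT, -0.02 to 0.18 in SA and -0.09 to 0.13 in SD. The log2 fold changes of GCLM against V in WT, SA and SD were -0.09, -0.08 and -0.15, and those of GSR 0.06, 0.08 and -0.04. GPX2, a peroxidase of low level here, had the largest falls of any member in SA and SD by point estimate, and a wide spread. It was at 13.4, 8.81 and 7.99 CPM in V, 8.64, 7.81 and 5.79 in WT, 8.82, 5.38 and 6.89 in SA and 4.2, 4.4 and 8.73 in SD. The lines overlapped. V replicate 1 stood above the other 2 V libraries and SD replicate 3 above the other 2 of SD. The log2 fold change of GPX2 in SD against V was -0.78 ± 0.24 (adjusted p = 0.0548). It passed the threshold with both other filters on low counts, which kept all libraries, and without SD replicate 3.

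The thioredoxin genes did not pass the test in any comparison either, which covers thioredoxin itself (TXN), its reductase TXNRD1, the peroxiredoxin PRDX1 and sulfiredoxin SRXN1, which restores overoxidised peroxiredoxins. By edgeR at an unadjusted p under 0.05, 3 of the 4 differed between WT and V, 2 between SA and V and 1 between SD and V, where 17.4%, 20% and 17.4% of all genes tested did, and DESeq2 called TXNRD1 in WT. TXN was at 307 ± 17.8 CPM in V and 341 ± 9.64 in WT (log2 fold change 0.15 ± 0.047, adjusted p = 0.0576), and all WT libraries lay above those of V. TXN was called in WT with both other filters on low counts and without V replicate 2. TXNRD1 was at 1132 ± 24.1 CPM in V against 1224 ± 15.9 in WT, 1219 ± 79.7 in SA and 1164 ± 33.5 in SD, with log2 fold changes of 0.11, 0.11 and 0.04. Those of SRXN1 were 0.11, 0.14 and 0.04, and those of PRDX1 -0.04, -0.05 and -0.12. Without SA replicate 1, TXNRD1 and SRXN1 were called in SA.

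Of the 5 genes that supply NADPH or belong to the pentose phosphate pathway, PGD changed in WT and TALDO1 in SA. PGD encodes 6-phosphogluconate dehydrogenase, which makes NADPH. It was at 1033, 1004 and 1064 CPM in V, 914, 941 and 965 in WT, 943, 984 and 1025 in SA and 941, 983 and 997 in SD. All WT and SD libraries were below those of V, and SA replicate 3 lay within the V range. PGD fell by 9.08% in WT (log2 fold change -0.14 ± 0.039, adjusted p = 0.0347), which was lost without V replicates 1 or 3 or WT replicates 1 or 2 (adjusted p between 0.089 and 0.167). TALDO1 encodes transaldolase of the non-oxidative branch. It was at 169, 175 and 179 CPM in V, 198, 192 and 189.6 in WT, 184, 204 and 208 in SA and 177, 181 and 186 in SD, with all WT and SA libraries above all V libraries. TALDO1 rose by 14% in SA (log2 fold change 0.19 ± 0.055, adjusted p = 0.0324), which was lost without V replicate 1, 2 or 3 or SA replicate 2 or 3 (adjusted p between 0.0572 and 0.188). In WT, the log2 fold change of TALDO1 was 0.15 ± 0.048 (adjusted p = 0.0816). Transketolase TKT, malic enzyme ME1 and the cytosolic isocitrate dehydrogenase IDH1 did not pass the test in any line, and the lowest adjusted p among them was 0.0705, for ME1 in SA (log2 fold change -0.18). TKT was called in SA without SA replicate 1, and ME1 without SA replicate 3.

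Among the exporters, ABCC3 changed in WT and SA. ABCC1, ABCC2 and ABCC3 encode multidrug resistance-associated proteins, which pump glutathione and glucuronide conjugates out of the cell. ABCC3 (ENSG00000108846, chr17:50634777-50692253, plus strand) was at 802, 774 and 762 CPM in V, 701, 667 and 682 in WT, 762, 668 and 650.3 in SA and 841, 764 and 737 in SD. All WT libraries were below all V libraries, SA replicate 1 lay just below the lowest V library, and SD replicate 1 was the highest of the 12. ABCC3 fell by 12.4% in WT (log2 fold change -0.19 ± 0.040, adjusted p = 0.00279) and by 11.1% in SA (log2 fold change -0.17 ± 0.052, adjusted p = 0.0445). The call in WT was kept without any single library, and that in SA was lost without V replicate 1, 2 or 3 or SA replicate 2 or 3 (adjusted p between 0.0732 and 0.271). In SD the log2 fold change against V was 0.00 (95% interval -0.11 to 0.12), and the libraries overlapped. ABCC1 was at -0.13 in WT, -0.14 in SA and -0.01 in SD on the log2 scale against V, with an adjusted p of 0.0689 in WT and 0.0502 in SA. It was called lower in SA by DESeq2, with DESeq2 size factors, when each library had to hold at least 10 counts, with the replicate block, with near-identical genes summed and without SA replicate 1, and in WT when each library had to hold at least 10 counts and without WT replicate 1. ABCC2 and UGDH, which makes UDP-glucuronic acid, did not pass the test, with log2 fold changes in SD of 0.04 and 0.13. UGDH was called in SD without SD replicate 1.

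Of the other targets, TRIM16L changed in WT and SA. TRIM16L, a gene related to TRIM16, was at 262, 254 and 269 CPM in V, 291, 297 and 299 in WT, 298, 306 and 321 in SA and 274, 295 and 293 in SD, and the 9 libraries of the AHR lines all lay above the highest of V. TRIM16L rose by 13.1% in WT (log2 fold change 0.18 ± 0.044, adjusted p = 0.0137) and by 18% in SA (log2 fold change 0.24 ± 0.049, adjusted p = 0.00199). In SD the log2 fold change of 0.14 ± 0.054 did not pass the test (adjusted p = 0.144), but TRIM16L was called in SD without SD replicate 1. The call in WT was lost without V replicate 1 or 2 or WT replicate 3 (adjusted p between 0.0631 and 0.0706). Of the 50-base stretches of TRIM16L, 100% also occur in other genes. They are shared at 55.7% with TRIM16 and at 38.4% with a gene without a symbol, at 8.09 CPM on average. All of them occur in a second gene named TRIM16L on the same strand, which has no value in the count table. Neither TRIM16 nor TRIM16L had a whole-number count in any library. With the counts of TRIM16 and TRIM16L summed, the sum was higher than in V in WT (log2 fold change 0.15 ± 0.040, adjusted p = 0.0236) and in SA (0.17 ± 0.046, adjusted p = 0.0189), and it did not pass the test in SD (0.11 ± 0.052, adjusted p = 0.289). TRIM16, of the tripartite-motif family, had log2 fold changes against V of 0.12, 0.11 and 0.08 and did not pass the test, but it was called in SA without SA replicate 1. The iron-binding protein PIR, the growth inhibitor OSGIN1 and the orphan nuclear receptor NR0B1 did not pass it in any comparison. In SA against V, the log2 fold change of OSGIN1 was 0.22 ± 0.089 (adjusted p = 0.151) and that of NR0B1 0.23 ± 0.080 (adjusted p = 0.0919). NR0B1 was called in SA without V replicate 2.

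**Figure D3:**
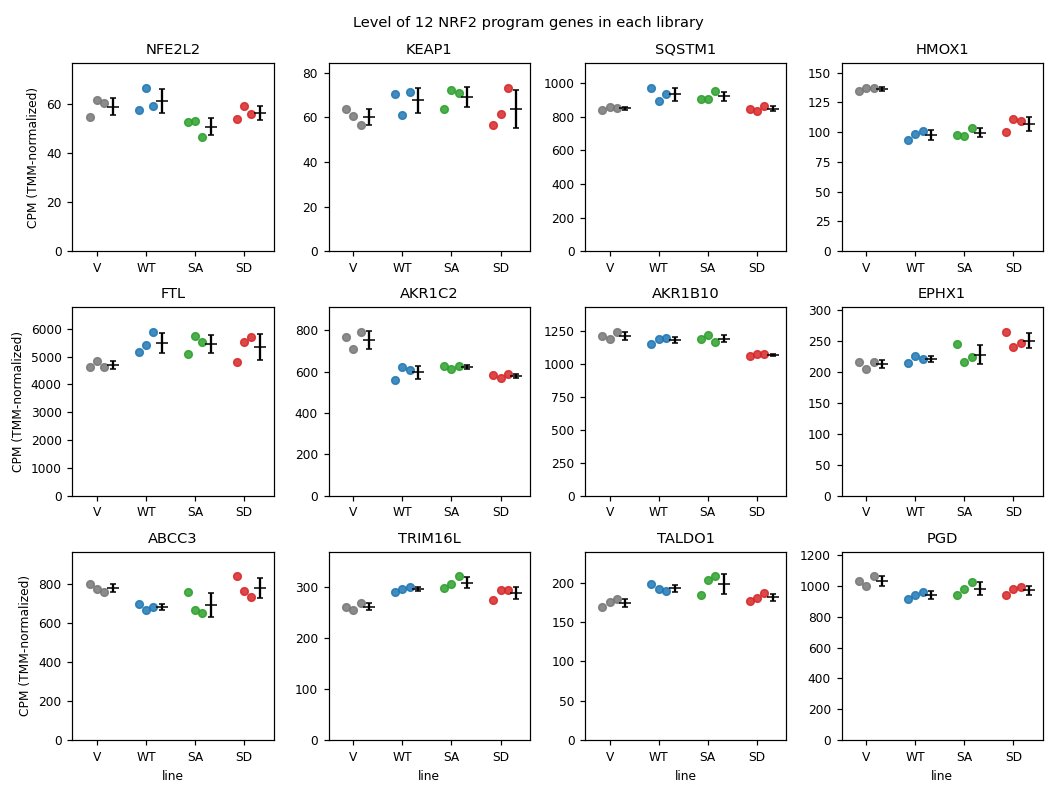
Each point is a library's TMM-normalized CPM, and the black marks give the mean and SD of the 3 libraries of a line. All vertical axes start at 0. The 9 libraries of WT, SA and SD lie below V for HMOX1 and AKR1C2 and above V for TRIM16L.

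The AHR lines were then compared with each other, which asks whether the serine changed in SA and SD bears on the program. No member changed in SD against WT, where 0.708% of 14828 genes tested changed, in SD against SA, where 0.22% of 15030 changed, or in WT against SA, where 0.0803% of 14942 changed. At an unadjusted p under 0.05, edgeR's quasi-likelihood test gave 7 members for SD and WT, 8 for SD and SA and 3 for WT and SA, beside 10.6%, 8.52% and 7.31% of all genes tested. DESeq2 called ABCC3 and AKR1B10 in SD against WT and no member in the other 2 comparisons. The lowest adjusted p was 0.133 for ABCC3 in SD against WT (log2 fold change 0.19 ± 0.056), where all SD libraries were above all WT libraries, and without SD replicate 3 ABCC3 passed the threshold. EPHX1 followed at an adjusted p of 0.161. In SD against SA the lowest was 0.308 for NR0B1 (log2 fold change -0.25 ± 0.078), and in WT against SA 0.33 for NFE2L2 (log2 fold change 0.27 ± 0.078).

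The intervals set only a wide limit on how far the AHR lines could differ. Every change of a member called against V was itself smaller than 0.5 on the log2 scale. The 95% interval of the log2 fold change lay within ±0.5 for 37 of the 39 members when SD was set against WT, for 36 when it was set against SA, and for 37 between WT and SA. The exceptions were CBR3 and GPX2 in each comparison and OSGIN1 in SD against SA. For HMOX1 the interval was 0.00 to 0.26 in SD against WT and -0.03 to 0.24 in SD against SA, for AKR1C2 -0.15 to 0.07 and -0.21 to 0.00, and for FTL -0.17 to 0.09 and -0.17 to 0.11. For KEAP1 it was -0.25 to 0.10 in SD against WT and -0.29 to 0.06 in SD against SA, and for NFE2L2 -0.28 to 0.03 and -0.01 to 0.31. AHR itself was lower in SD than in WT, and its part in these differences was not tested.

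**Figure D4:**
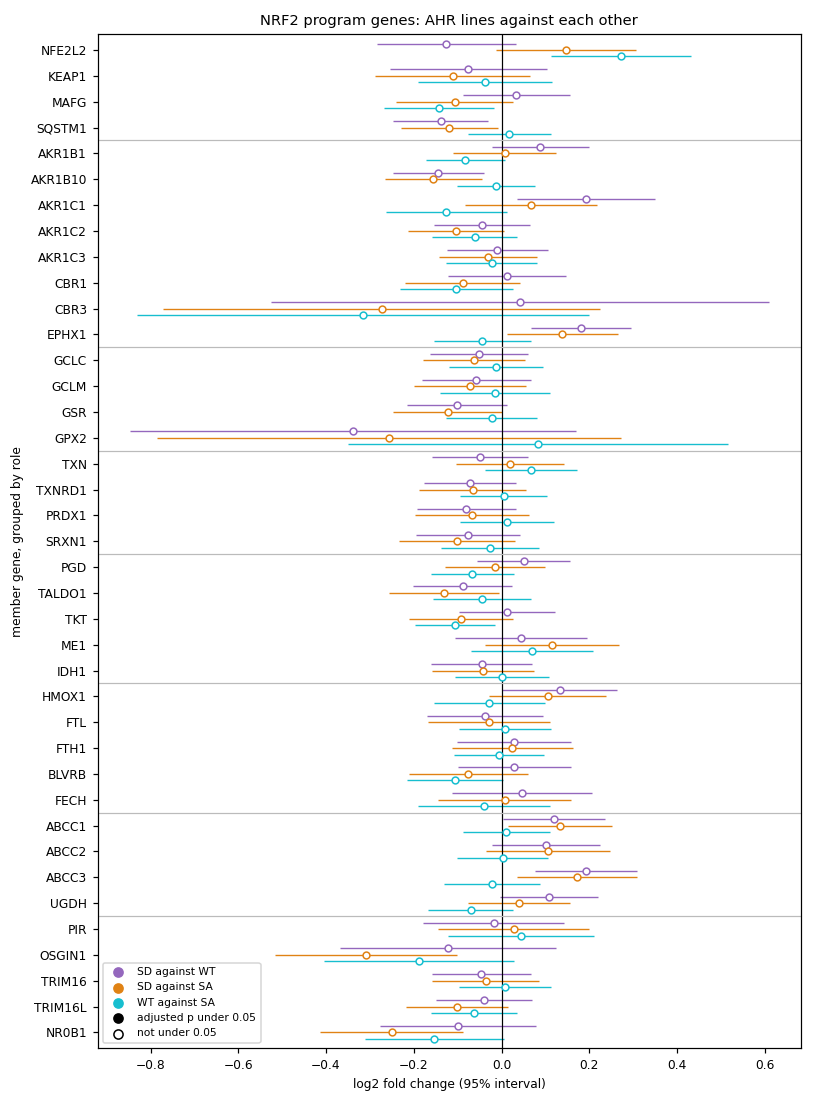
Points are log2 fold changes of each member in SD against WT (purple), SD against SA (orange) and WT against SA (light blue), with 95% intervals from edgeR's quasi-likelihood fit. All points are open, since no member had an adjusted p under 0.05, and the intervals of CBR3 and GPX2 are the widest.

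Other genes of the pathway were read from the same fits. Of 14 further NRF2 targets, 12 were expressed well enough to be tested. NQO1 and CYP4F3 changed in WT, NQO1, CYP4F11 and CYP4F3 in SA, and CYP4F3 and MGST1 in SD. Of all genes tested, 5.24% changed in WT, 7.17% in SA and 5.41% in SD against V. NQO1, CYP4F11 and MGST1 were chosen to be named after their values were seen. NQO1, a quinone reductase, was at 887, 869.7 and 900.0 CPM in V, 996, 1035 and 1054 in WT, 997, 1045 and 1035 in SA and 923, 992 and 1038 in SD. All libraries of the AHR lines were above those of V, and the rise passed the test in WT (16%, adjusted p = 0.000511) and SA (15.8%, adjusted p = 0.0023) but not in SD (0.15 on the log2 scale, adjusted p = 0.0941). CYP4F3, a P450 that hydroxylates leukotriene B4 and fatty acids, fell from 24 ± 1.3 CPM in V to 15.6 ± 0.708 in WT (adjusted p = 0.000504), 15.7 ± 0.387 in SA (adjusted p = 0.000444) and 15.7 ± 1.89 in SD (adjusted p = 0.0016). CYP4F11 rose in SA (log2 fold change 1.12 ± 0.26, adjusted p = 0.00627) from a low level of 2.98 ± 1.1 CPM in V. MGST1, a microsomal glutathione transferase, rose by 17.7% in SD (adjusted p = 0.00661).

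Of 14 further regulators of the pathway, MAFK fell in each AHR line and NFE2L3 rose in WT, beside the same shares of all genes. MAFK, a small MAF protein that pairs with NRF2 or with the repressor BACH1, was at 233, 252 and 226 CPM in V, 166, 136 and 139.5 in WT, 175, 149 and 152 in SA and 149, 158 and 152 in SD. The lowest V library was above all 9 libraries of the AHR lines. MAFK fell by 38.2% in WT (log2 fold change -0.69 ± 0.061, adjusted p = 4.84e-09), 33.3% in SA (-0.58 ± 0.060, adjusted p = 1.34e-07) and 35.3% in SD (-0.63 ± 0.057, adjusted p = 3.31e-08). NFE2L3, a relative of NFE2L2 chosen to be named after its values were seen, rose by 28.7% in WT (adjusted p = 0.00851). Between the AHR lines none of the 28 further genes changed by edgeR's quasi-likelihood test. At an unadjusted p under 0.05 by that test, 2 of these genes differed in SD from WT, 4 in SD from SA and 2 in WT from SA. Of all genes tested, 10.6%, 8.52% and 7.31% did so. DESeq2 called 1 of the further genes in SD against WT. Of the 6 AHR pathway genes looked at, 5 were tested and CYP1A1 was too low, at 0 to 0.98 CPM. CYP1B1, like AHR, rose in each AHR line (log2 fold changes 0.34, 0.38 and 0.34, adjusted p = 0.00275, 0.000475 and 0.00333). TIPARP, a target of AHR that was chosen to be named after its values were seen, rose in WT (0.51, adjusted p = 0.00755) and SA (0.48, adjusted p = 0.0095) and did not pass the test in SD (0.21, adjusted p = 0.413). AHRR, the AHR repressor, also named after its values were seen, was at -0.28, -0.73 and -0.69 on the log2 scale against V at a level of 0.665 to 3.68 CPM, and did not pass the test (adjusted p = 0.746, 0.284 and 0.301). ARNT, the dimerization partner of AHR, did not pass it in any line.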

How the data were processed

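RNA-seq counts of 12 libraries, 3 from each of 4 A549 lines, were analysed. Per the labels and the submitters' processing notes, the authors trimmed reads with Trimmomatic 0.39, estimated expected counts per gene with RSEM on GRCh38 and deposited them without normalization. How strand was handled is not given in the sources used here. A deposited table of the authors' own comparisons, which holds fold changes and p-values, was not used.

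Expected counts were rounded to whole numbers, as edgeR needs. For each comparison the 6 libraries of both lines were fitted with edgeR 4.0.16 (R 4.3.3): filterByExpr (minimum count 10, minimum total 15), TMM factors, and quasi-likelihood tests, adjusted by Benjamini-Hochberg over all genes tested. Levels are TMM-normalized CPM. TPM used the length of the canonical transcript of GENCODE release 44, which lists 60295 of the 60623 genes. Shared sequence was counted in stretches of 50 bases. The alternatives tried were 1 fit of all 12 libraries, DESeq2 1.42.0 and its size factors, library totals, 2 other filters on low counts, adjustment over the 6 comparisons, sums of near-identical genes, a replicate block and each library left out. The fit was tested on simulated counts with 200 changed genes, whose changes were larger than most of those called among the members. Groups were taken from the labels, and no sample or column of counts was left out. Scipy 1.17.1 and matplotlib 3.10.9 (Python 3.11.15) gave intervals and plots.

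The members and lists were chosen with earlier results of these data known. NFE2L2 and KEAP1 are described in full. The other members that changed in at least 1 comparison are described by role, with full statistics for at most 3 per role (smallest adjusted p), and the rest are counted or named.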

Additional observations from a re-analysis of the deposited data

How the results depend on the processing

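Of the 17 calls of a member in a comparison, 12 were kept in every alternative in which the gene was tested, 10 without any single library, and 9 in both: AKR1C2 and HMOX1 in WT, SA and SD, FTL in WT and SA, and TRIM16L in SA. AKR1C2 and TRIM16L were not tested by themselves in the fit of summed genes, in which AKR1C1 with AKR1C2 was lower in all 3 lines and TRIM16 with TRIM16L higher in WT and SA. The number of members changed in WT against V was 4 with all 12 libraries in 1 fit, where 603 of 15453 genes tested changed. With a filter of at least 1 count the number of members was 7 in SD against V and 1 (ABCC3) in SD against WT. In those fits 973 of 25868 and 252 of 25709 genes changed. DESeq2 called 2 members in SD against WT (ABCC3 and AKR1B10), among 122 of 14828 genes. With single libraries left out, the number lay between 4 and 7 in WT against V, 4 and 14 in SA against V, 3 and 8 in SD against V, and 0 and 1 in SD against WT, and it was 0 throughout in the other 2 comparisons. The log2 fold change of NFE2L2 in WT against V lay between -0.013 (without WT replicate 2) and 0.10. That of KEAP1 lay between -0.030 (without SD replicate 3) and 0.17 in SD against V, between -0.19 and 0.00 (0.0042, without SD replicate 1) in SD against WT, and between -0.089 and 0.037 (without WT replicate 2) in WT against SA. None of these values of NFE2L2 and KEAP1 passed the test, and the cause of the turns was not tested. Beyond the losses given with the results, with all 12 libraries in 1 fit the adjusted p was 0.0954 for SQSTM1, 0.105 for PGD and 0.0538 for ABCC3 in WT, and 0.0713 for ABCC3 in SA. With p adjusted over the 6 comparisons, it was 0.0704 for SQSTM1 and 0.0548 for PGD in WT, and 0.0615 for TALDO1 and 0.0826 for ABCC3 in SA.

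The deviations of same-numbered libraries from their line's mean correlated only weakly, at more than 0.1 in 1 of 18 pairs (range -0.038 to 0.106). For the 36 pairs with different numbers the range was -0.099 to 0.065. Replicate 1 had the lowest member share within every line. Replicate 3 had the lowest mitochondrial share within each AHR line, but replicate 2 had it within V. Whether libraries with the same replicate number were handled together was not tested. With the replicate number as a block, 5 members changed in WT against V, 9 in SA against V, 4 in SD against V, 1 in SD against WT (ABCC3), 2 when SD was set against SA and 0 between WT and SA. Of all genes tested, 507, 1345, 664, 245, 165 and 25 changed with the block, in the same order. Without the block, these numbers were 774, 1069, 806, 105, 33 and 12. In that fit SQSTM1 and PGD were not called in WT (adjusted p = 0.121 and 0.0833).

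Counts over all genes moved by more than 1.5 times in some fits. In WT against V, 507 genes changed with the block, against 774. In SD against WT, 252 changed with a filter of at least 1 count, 245 with the block and 196 with p adjusted over the 6 comparisons, against 105. In SD against SA these numbers were 153, 165 and 108, against 33. In WT against SA they were 103, 25 and 72, against 12, and 5 with all 12 libraries in 1 fit. Without single libraries, the number lay between 434 and 720 in WT against V, 621 and 1195 in SA against V, 502 and 856 in SD against V, 45 and 145 in SD against WT, 11 and 56 when SD was set against SA, and 2 and 25 between WT and SA. With 3 libraries a line, the median standard error of a member's log2 fold change was between 0.047 and 0.0625, and for CBR3 and GPX2 changes of the size called elsewhere were not detectable.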

Other observations

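Ratios of paired genes within a library, chosen after the values were seen, are given as values. FTL over FTH1, the ratio of their CPM, was 1.43 ± 0.031 in V (± SD, n = 3) against 1.66 ± 0.043 in WT, 1.64 ± 0.017 in SA and 1.58 ± 0.015 in SD, and the libraries of each AHR line lay above all of V. AKR1C2 over AKR1C1 was 9.3 ± 0.32 in V against 7.32 ± 0.27 in WT, 6.97 ± 0.25 in SA and 6.22 ± 0.58 in SD, which carries the uncertain division of reads between the genes. MAFK over MAFG, small MAF partners of NRF2, was 1.53 ± 0.12 in V against 1.03 ± 0.061 in WT, 1 ± 0.018 in SA and 1.05 ± 0.063 in SD. Each of the 9 comparisons with V gave p = 0.1 by a two-sided exact permutation test, the smallest that 3 libraries against 3 allow, so none could pass 0.05. The expression of the members without both ferritin chains took between 1.43% and 1.53% of the counts of a library, and the ranges of the 4 lines overlapped.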
